A study of Drosophila melanogaster with 3 samples.

Results

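The genes hh, ptc, smo, fu and ci form the core of the Hedgehog signalling pathway, and what follows describes where the protein CG10669 was found at these 5 of 13945 protein-coding genes of Drosophila melanogaster. The genes were chosen by name, and every summit of the reproducible peak list in a gene body or within 5 kb of it counted for that gene, which gave 13 of 7248 summits. The measurements were chromatin immunoprecipitation with sequencing (ChIP-seq), in which DNA bound by a protein is recovered with an antibody and sequenced. The 1 group consisted of whole prepupae, the stage at the onset of metamorphosis, of a line that stably expressed CG10669 with green fluorescent protein (GFP) at its C-terminus, with males and females pooled and 3 biological replicates. No treatment, second genotype or other stage was included, so the comparisons are between genes, between summits and between replicates. The antibody field names CG10669 itself, and how the tagged protein was driven is not given in the sources used here. Whole animals mix all tissues, and binding in a few cells and weak binding in many cells cannot be told apart in such material.

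Hedgehog is a secreted signal that patterns segments, wings, legs and eyes in the fly. Without the ligand, the receptor Patched keeps the membrane protein Smoothened inactive, and the transcription factor Cubitus interruptus (Ci) is cut into a repressor. When Hedgehog binds Patched, Smoothened becomes active, the kinase Fused acts downstream of it, and full-length Ci switches on target genes, ptc among them, which makes Patched part of a negative feedback loop.

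Of the 5 genes, 4 had at least 1 reproducible summit, and fu had 0. Over all protein-coding genes, 6321 of 13945, or 45.3%, had one. The summits were spread unevenly, with 9 at ptc, 2 at smo, 1 at hh, 1 at ci and 0 at fu, against a median of 0 over all genes and of 2 over genes with at least 1. None of the 5 genes had a reproducible summit within 500 bp of its own transcription start site (TSS), while 15.4% of all genes did. Only 4 of the 13 summits lay inside a member's gene body, all of them in introns of ptc, and 4 lay upstream and 5 downstream of the gene that counted them. Of the 5 downstream summits, 3 fell within the neighbouring gene Acsl, which encodes a fatty-acyl-CoA synthetase, and 2 within the neighbouring gene CG3625. With flanks of 2 kb, or the gene body alone, ptc was the only one of the 5 genes that kept a summit, against 31.8% and 14% of all genes. By annotation 7 summits were intronic, 3 intergenic and 3 at the promoter of a neighbour, 1 at Acsl and 2 at CG3625.

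**Figure D1:**
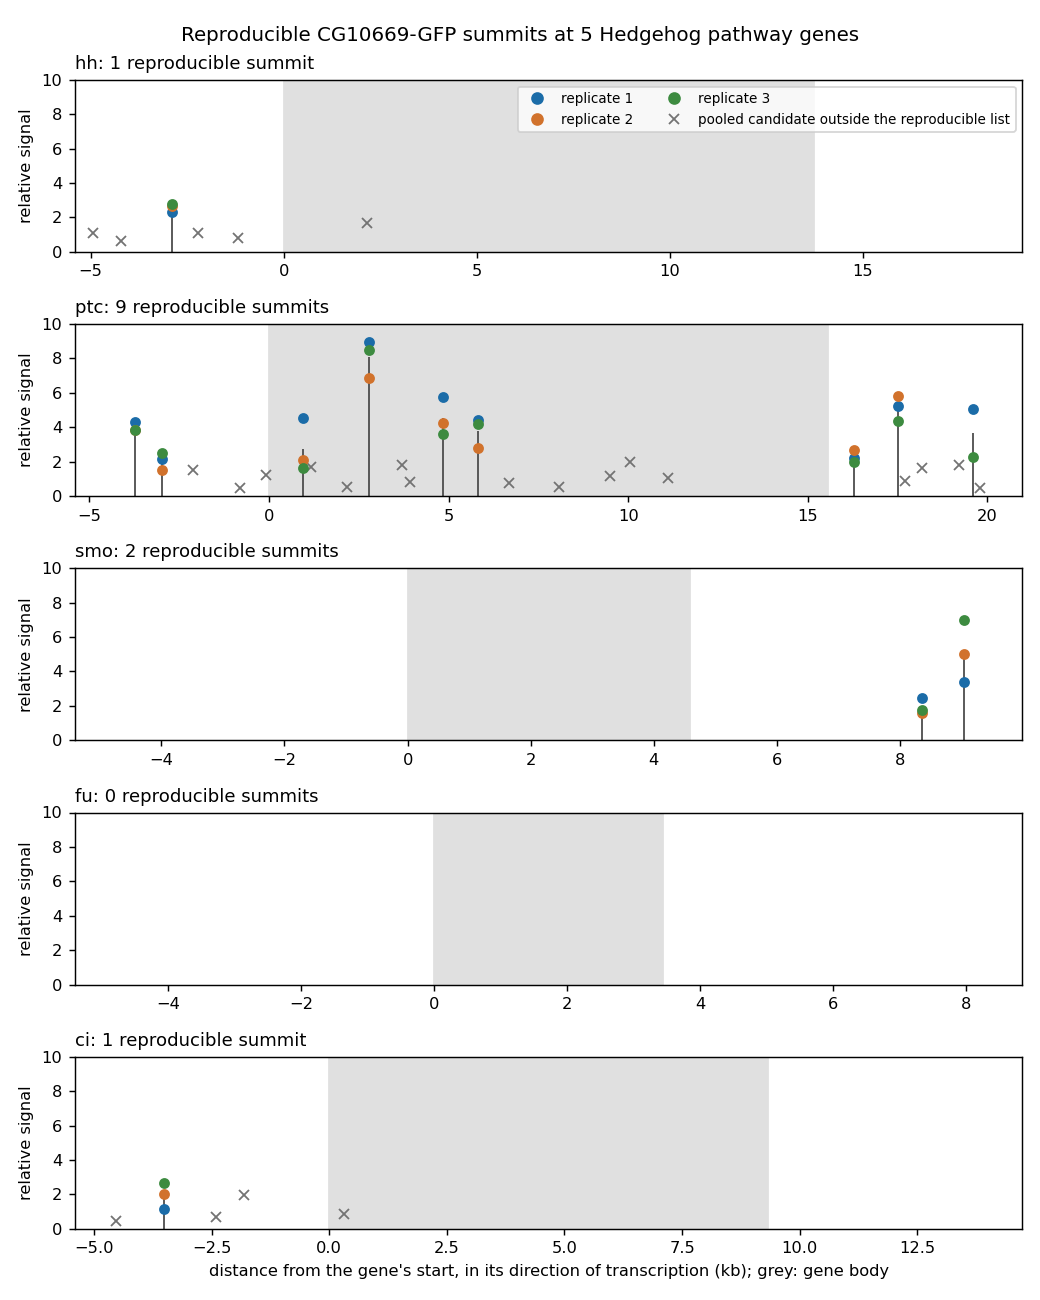
Relative signal (vertical axis) against distance from the gene's start in kb in the direction of transcription (horizontal axis) for the 5 genes, with the gene body in grey, points for the 3 replicates, stems for their mean and crosses for pooled candidates outside the reproducible list. ptc carries 9 summits before, inside and beyond the gene, the single summits of hh and ci lie upstream, both summits of smo lie beyond its end, and the fu panel is empty.

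Peak signals were deposited by the authors on the scale of their peak caller, which differs from list to list, so they are given here as a rank within a list (1 is the strongest) or as a relative signal. The relative signal is the signal of the nearest candidate summit within 200 bp in a replicate's list of 30000, divided by the median of that list. The reproducible list had a median pooled signal of 303.8, which is a relative signal of 4.36 in the pooled list. A summit counted as recovered in a replicate if one of that replicate's 7248 strongest candidates lay within 200 bp. By this count 7 of the 13 summits were recovered in all 3 replicates, 5 in 2 replicates and 1 in 1 replicate, while 66.7% of all reproducible summits were recovered in all 3. Of the 13 summits, 6 ranked above the median of the reproducible list. In the full lists of 30000 candidates, 12 of 13 had a candidate within 200 bp in every replicate, close to the 93.6% of all reproducible summits. Sequencing depth was unknown, and all replicate lists were called against the same control file, whose part in their overlap was not tested.

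**Figure D2:**
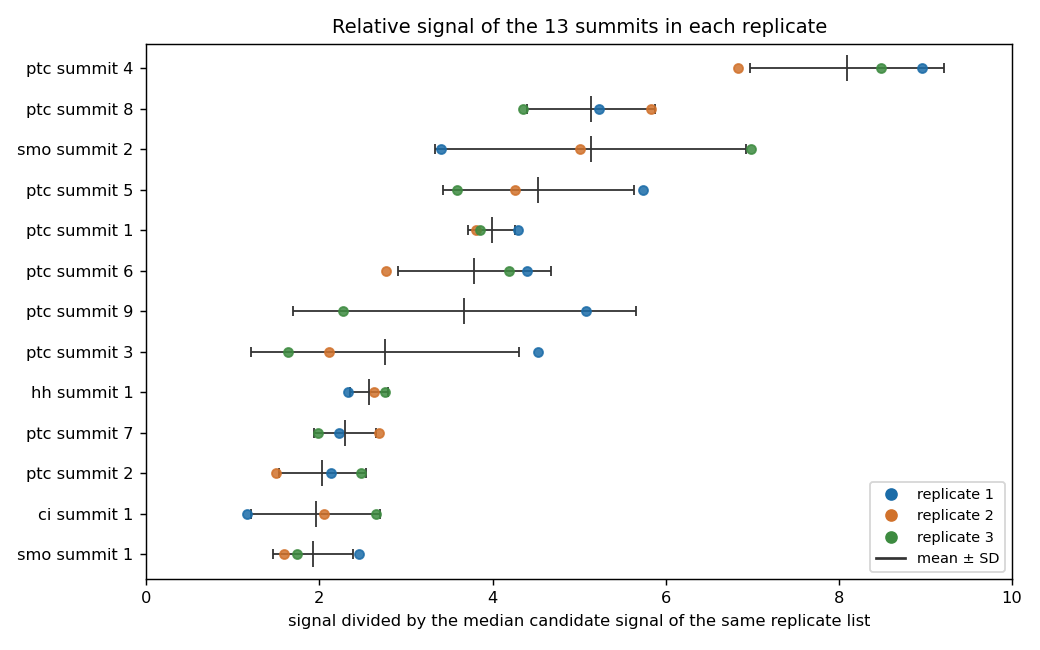
Relative signal (horizontal axis, signal divided by the list's median candidate signal) of each of the 13 summits, ordered by mean from top to bottom, with coloured points for the 3 replicates and bars for mean ± SD. ptc summit 4 is the highest in each replicate, between 6.83 and 8.96, and ptc summit 9 has 2 points because replicate 2 held no candidate within 200 bp.

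hh (FBgn0004644) encodes the ligand and lies on the minus strand at 3R:23128169-23141906 (dm6). Its only reproducible summit was at 23144791, in intergenic DNA 2885 bp upstream of the start, and hh was the nearest protein-coding TSS. Replicates 1, 2 and 3 gave relative signals of 2.33, 2.63 and 2.76 there, with a mean of 2.58 ± 0.22 (SD, n = 3). The replicates were close together and none stood apart, and the summit was recovered in all 3, at ranks 6434, 4777 and 5340. The 3 replicate summits lay 5, 20 and 4 bp from the reproducible one. No summit lay in the 13738 bp of the gene itself, and the strongest pooled candidate inside it, in an intron 2160 bp from the start, ranked only 9621.

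Just beyond the 5 kb window of hh, 2 more reproducible summits lay upstream in intergenic DNA that is still nearest to the hh start, at 5913 bp and at 6688 bp. The one at 5913 bp, at 23147819, had relative signals of 5.89, 7.89 and 9.18, a mean of 7.65 ± 1.65 (SD, n = 3), and a pooled rank of 1350. The one at 6688 bp, at 23148594, had 3.73, 3.77 and 5.32, a mean of 4.27 ± 0.90 (SD, n = 3), and a pooled rank of 3237. Both were higher in every replicate than the summit inside the window, and all 3 replicates recovered both. The sequences around the counted summit and around the strongest one beyond the window are shown because they are the nearest and the strongest of the summits given here for the ligand gene. Each is 300 bases of the plus strand from the RefSeq Release 6 assembly with the summit in the middle, and capitals would mark the 5-base core CACTG or its complement, which is described with the sequence results and occurs in neither.
hh summit 1, 3R:23144641-23144940: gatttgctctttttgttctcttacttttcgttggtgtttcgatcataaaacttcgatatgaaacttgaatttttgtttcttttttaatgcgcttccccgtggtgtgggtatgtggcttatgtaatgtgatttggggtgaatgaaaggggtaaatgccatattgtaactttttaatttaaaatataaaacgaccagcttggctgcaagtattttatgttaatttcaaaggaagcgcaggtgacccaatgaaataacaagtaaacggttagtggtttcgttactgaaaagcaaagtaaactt
hh, 5913 bp upstream, 3R:23147669-23147968: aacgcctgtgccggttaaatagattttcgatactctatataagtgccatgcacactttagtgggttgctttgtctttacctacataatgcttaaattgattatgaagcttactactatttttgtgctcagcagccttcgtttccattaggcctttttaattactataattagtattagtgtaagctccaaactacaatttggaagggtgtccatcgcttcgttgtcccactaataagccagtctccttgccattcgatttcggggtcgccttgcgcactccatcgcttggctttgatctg

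ptc (FBgn0003892) encodes the receptor and lies on the plus strand at 2R:8649649-8665223. Its 9 summits placed it among 117 genes, or 0.839% of all genes, with 9 or more. Its window of 25.575 kb is long, and 9.44% of genes have one at least as long. Per window length it held 3.52 summits per 10 kb, and 1.16% of genes were at least as dense. The 4 summits inside the gene were all in its first 6 kb, at 955, 2782, 4838 and 5825 bp from the start. For each of them the nearest TSS of any kind was that of the non-coding RNA gene CR44281, at 892, 935, 2991 and 3978 bp. The 10464 bp between the fourth of these and the next summit, which includes the rest of the gene, held no reproducible summit.

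**Figure D3:**
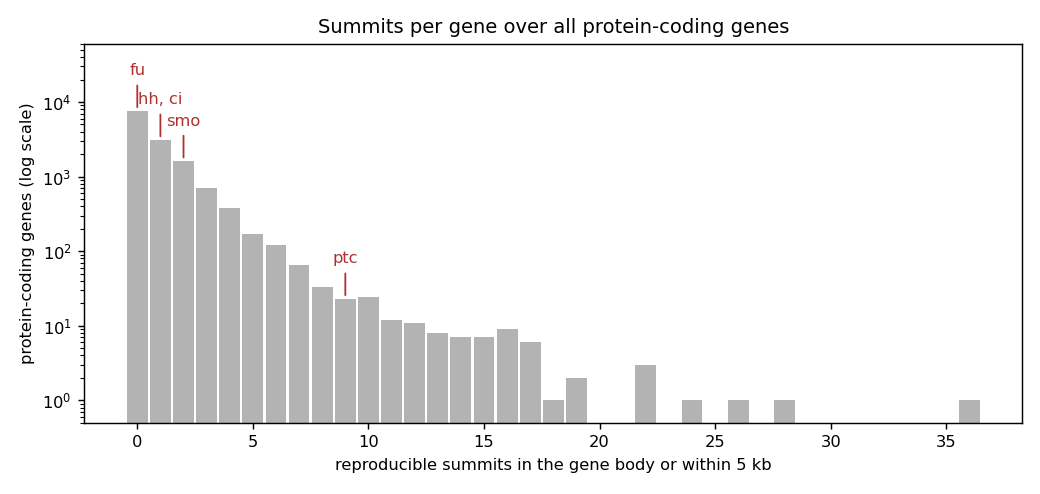
Number of protein-coding genes (vertical axis, log scale) by the number of reproducible summits in the gene body or within 5 kb (horizontal axis), over all 13945 genes, with the 5 Hedgehog pathway genes marked. ptc, with 9 summits, is in the sparse right tail, smo, hh and ci stand at 2, 1 and 1, and fu is in the bar of 7624 genes without a summit.

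The strongest summit of ptc was the intronic one at 8652431, 2782 bp inside the gene and numbered 4 from upstream to downstream. Replicates 1, 2 and 3 gave it relative signals of 8.96, 6.83 and 8.48, with a mean of 8.09 ± 1.12 (SD, n = 3), with ranks of 1309, 1310 and 1202. It was above every other ptc summit of the window in each replicate, and exceeded the next one, summit 8, by a log2 ratio of 0.66 ± 0.38 (SD, n = 3). Summit 8, at 8667146 in an intron of Acsl, had 5.23, 5.83 and 4.35, a mean of 5.14 ± 0.74. Further inside the ptc introns, summit 5 at 8654487 and summit 6 at 8655474 were recovered in all 3 replicates. Summit 5 had 5.74, 4.26 and 3.59, a mean of 4.53 ± 1.10, and summit 6 had 4.40, 2.78 and 4.19, a mean of 3.79 ± 0.88 (SD, n = 3 each). Replicate 1 was the highest for both, and their ranges overlapped.

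Upstream of ptc, summit 1 at 8645914 was 3735 bp before the start and had relative signals of 4.30, 3.81 and 3.85, a mean of 3.99 ± 0.27 (SD, n = 3). It had the smallest SD of the 13 in proportion to its mean and was recovered in all 3 replicates. Summit 2, at 8646659 and 745 bp from summit 1, was weaker with 2.13, 1.50 and 2.48, a mean of 2.04 ± 0.50, and replicate 2 did not recover it. Just past the 5 kb edge, a reproducible summit at 8644383, 5266 bp upstream and nearest to the ptc start, was stronger than any of the 9, with 12.15, 9.38 and 12.29, a mean of 11.28 ± 1.64 (SD, n = 3), and a pooled rank of 741. A summit beyond the other edge, 5662 bp downstream, had a pooled rank of 6488 and lay 162 bp from a TSS of Acsl.

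The remaining ptc summits were each missed by 1 replicate. Summit 3, at 8650604 in the intron 955 bp from the start, had 4.53, 2.11 and 1.64 in replicates 1, 2 and 3, with a mean of 2.76 ± 1.55 (SD, n = 3). Replicate 1 stood above the other replicates, its candidate lay 171 bp away from the reproducible summit and nearer to another pooled candidate, at 8650805 with rank 9467, and replicate 3 did not recover the summit. Summit 7, at 8665938 and 125 bp from a TSS of Acsl, had 2.23, 2.69 and 1.98, a mean of 2.30 ± 0.36, and replicate 3 did not recover it. Summit 9, at 8669238 in an intron of Acsl, had 5.08 and 2.27 in replicates 1 and 3, with a mean of 3.67 ± 1.98 (SD, n = 2), and no candidate within 200 bp in replicate 2. The nearest candidate of replicate 2, at 8669028, lay just outside that distance, at rank 8794 with a relative signal of 1.57. Among neighbours in the order of the 9 summits, the log2 ratio exceeded its SD for summit 4 over 8 and for summit 9 over 3, the last with n = 2, and was within its SD for the other 6 pairs. This order was set by the pooled signal of the same replicates, so a positive ratio was partly built in. The ratio of summit 9 over 3 leaves out replicate 2, which had 2.11 at summit 3 and no candidate within 200 bp at summit 9. Its replicate 1 value uses the summit 3 candidate that lay 171 bp away.

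The start of ptc itself had a candidate 77 bp before it among the strongest of replicate 3 alone, at rank 7064 and with a relative signal of 2.14, and none in the reproducible list. Pooled candidates were dense along the gene, with 16 beside the 9 reproducible ones, the strongest of them at rank 8049.

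smo (FBgn0003444), which encodes the signal transducer, lies on the plus strand at 2L:277582-282167. At least 2 reproducible summits, the number at smo, were found at 3215 genes (23.1%), and both of those at smo lay beyond its end at the start of the neighbour CG3625. Summit 2, at 286625, was 4458 bp beyond smo and 94 bp from a TSS of CG3625, within an antisense RNA gene, CR46263. Replicates 1, 2 and 3 gave it relative signals of 3.40, 5.01 and 6.99, with a mean of 5.13 ± 1.80 (SD, n = 3), and it was recovered in all 3. Replicate 3 was highest and replicate 1 lowest. Summit 1, at 285938 and 212 bp from a TSS of CG3625, was weaker, with 2.46, 1.59 and 1.74, a mean of 1.93 ± 0.46, and was recovered in replicate 1 only. The pooled list held no further candidate near smo, and the gene body and the region upstream of it were empty in it. When each summit was given only to the gene with the nearest TSS, a choice made after the data were seen, smo had none and 3 of the 5 genes kept a summit, against 21.4% of all genes.

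The sequence at smo summit 2 is shown because it is the strongest of the 13 summits outside ptc and the only one printed that holds the core, in capitals. It is given from the plus strand, with the part that overlaps the annotated 5′ end of a CG3625 transcript left out.
smo summit 2, 2L:286532-286774: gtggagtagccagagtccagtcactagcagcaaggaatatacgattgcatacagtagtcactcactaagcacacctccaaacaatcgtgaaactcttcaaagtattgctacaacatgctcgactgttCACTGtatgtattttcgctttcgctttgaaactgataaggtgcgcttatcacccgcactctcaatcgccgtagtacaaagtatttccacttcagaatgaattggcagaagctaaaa

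fu (FBgn0001079), which encodes the kinase that acts below Smoothened, lies on the plus strand at X:18657755-18661204 and was the only member without a reproducible summit. Its window of 13.45 kb was also empty in the pooled list of candidates, whereas 4 of the 5 members and 65.8% of all genes had at least 1 pooled candidate. Replicates 1 and 2 listed none there. Replicate 3 listed 3, at ranks 15004, 25803 and 27317, the first of them 108 bp before the start, and all were outside its 7248 strongest. The nearest reproducible summit was 10588 bp upstream, at 18647167, 400 bp from a TSS of Rip11. With the depth unknown, binding at fu below the reach of these lists was not detectable.

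ci (FBgn0004859), which encodes the transcription factor at the end of the pathway, lies on the minus strand of the small chromosome 4 at 4:47710-57041. Its only reproducible summit, at 60551, was 3510 bp upstream in an intron of the antisense RNA gene CR43957, and ci was the nearest protein-coding gene by TSS. Its relative signals in replicates 1, 2 and 3 were 1.17, 2.05 and 2.65, with a mean of 1.96 ± 0.75 (SD, n = 3), at ranks 12796, 6450 and 5619. Replicate 1 was lowest and did not recover the summit. It was the ninth by pooled rank of 17 reproducible summits on this chromosome. The sequence is shown because it is the one position linked to the pathway's own transcription factor and has the lowest GC content of the 13. It holds no core and so no capitals.
ci summit 1, 4:60401-60700: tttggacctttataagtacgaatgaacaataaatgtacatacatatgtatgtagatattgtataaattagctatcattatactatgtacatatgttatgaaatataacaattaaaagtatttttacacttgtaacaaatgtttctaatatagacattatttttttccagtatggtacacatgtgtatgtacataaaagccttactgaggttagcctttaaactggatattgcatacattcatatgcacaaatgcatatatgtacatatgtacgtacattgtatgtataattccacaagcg

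Set in order by the strongest summit in the window, ptc came before smo, hh and ci. The log2 ratio of ptc over smo was 1.40, 0.45 and 0.28 in the 3 replicates, a mean of 0.71 ± 0.60 (SD, n = 3). That of smo over hh was 0.54, 0.93 and 1.34, a mean of 0.94 ± 0.40, and that of hh over ci 1.00, 0.36 and 0.06, a mean of 0.47 ± 0.48. The upper gene was higher in 3 of 3 replicates in each of the 3 pairs, and hh over ci was within its SD. Taking the strongest candidate within 200 bp instead of the nearest gave ci a relative signal of 2.55 ± 1.34 (SD, n = 3). That nearly equalled the 2.58 ± 0.22 of hh under the same choice. Leaving out replicate 1 lowered 2 of the ratios, to 0.36 ± 0.12 for ptc over smo and 0.21 ± 0.22 for hh over ci (SD, n = 2). A two-sided exact sign-flip permutation test gave p = 0.25 for each pair, which is the smallest value that 3 replicates can give. Both the summits and their order were chosen by the pooled signal of these same 3 replicates. Agreement in sign was therefore partly built in, and the test is not independent evidence for the order. This order holds for the window as defined, since the summits of hh and ptc just beyond 5 kb were stronger than those inside it. The value for smo is that of its summit 2, 4458 bp beyond the gene and 94 bp from a TSS of CG3625. It may therefore belong to CG3625 rather than to smo.

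The strongest candidates of each replicate, taken as lists of 7248, gave similar counts for the 5 genes. hh had 1, 1 and 2 summits in replicates 1, 2 and 3, ptc had 11, 9 and 10, smo 2, 2 and 2, fu 0, 0 and 0, and ci 1, 2 and 2. Equal counts were not always at the same positions. At ci, replicate 1 counted a candidate at 58825 (rank 6693), while the reproducible summit ranked 12796 there. At smo, replicates 2 and 3 counted candidates at 283309 and 283207, and only replicate 1 recovered summit 1. In each replicate 4 of the 5 genes had a summit, against 48.1% ± 3.94 of all genes (SD, n = 3). The TSS window differed, with 0, 0 and 2 of the 5 genes holding a summit within 500 bp of a start, against 16.7% ± 1.42 of all genes (SD, n = 3). The 2 were ptc and ci, in replicate 3 alone.

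The genes whose strongest summit had the most similar relative signals across the 3 replicates were found by the Euclidean distance of log2 values. For ptc they were InR, the insulin receptor gene, at a distance of 0.0639, and kay, the fly Fos gene, also at 0.0639, over 5513 genes compared. For hh they were CG13912 at 0.130 and CG5906 at 0.147, and for smo Lim1, a LIM-homeodomain factor gene, at 0.0909 and CG14042 at 0.109 over 5510 genes. These distances rest on 3 values per gene, and those of smo are the values of its summit 2 at the start of CG3625.

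Of 29 further genes of the pathway, 18 (62.1%) had a reproducible summit, against 45.3% of all genes, and 7 had one at a TSS, against 15.4% of all genes. Their median window of 22.168 kb was longer than the 12.166 kb over all genes. Of 7 target genes of the pathway, 6 had a summit and none had one at a TSS, in windows with a median of 25.347 kb. The strongest summits of the targets en and caup were recovered in 1 replicate only, and that of kn lay 65 bp from a TSS of its neighbour BEAF-32. The summit in an intron of dpp, the BMP-type morphogen induced by Hedgehog in the wing, had a relative signal of 27.98 ± 2.69 (SD, n = 3) at pooled rank 72, above all 13 summits of the 5 core genes. The strongest summit of the target inv, a homeobox gene next to engrailed, had 11.59 ± 5.52 (SD, n = 2).

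Among genes for release and movement of the ligand, 4 of 8 had a summit, against 45.3% of all genes. These were the glypican genes dlp, with 10 summits, and dally, with 9, the heparan sulfate polymerase gene ttv with 5, and shf, a secreted factor that helps Hedgehog spread, with 4. Their windows were 49.009, 73.688, 71.651 and 18.197 kb long, against a median of 12.166 kb over all genes. dlp, dally and ttv each had one at a TSS. Of the 2 co-receptor genes, boi had 3 summits in a window of 35.877 kb and ihog 0. Among intracellular regulators 7 of 12 had a summit, against 45.3% of all genes, and gish, sgg, rdx and nej had one at a TSS. At gish, a casein kinase gene, the strongest lay 172 bp from a TSS and reached 30.81 ± 6.83, and at sgg, the GSK3 gene, 210 bp from a TSS with 19.73 ± 3.44 (SD, n = 3 each). rdx, a substrate adaptor for the turnover of Ci, had 14 summits in a window of 74.997 kb. nej, the CBP co-activator gene, had 4 in 31.625 kb. The strongest of 4 summits counted for Gprk2, a kinase of Smoothened, was also the strongest among these 29 genes at rank 7 with 55.04 ± 3.62 (SD, n = 3), and lay 78 bp from a TSS of its neighbour PNPase. The strongest of 3 counted for Cul3 lay 57 bp from a TSS of yuri. Without a summit were rasp, disp, sotv, botv, ihog, cos, Su(fu), CkIalpha, slmb, Usp8 and ara.

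**Figure D4:**
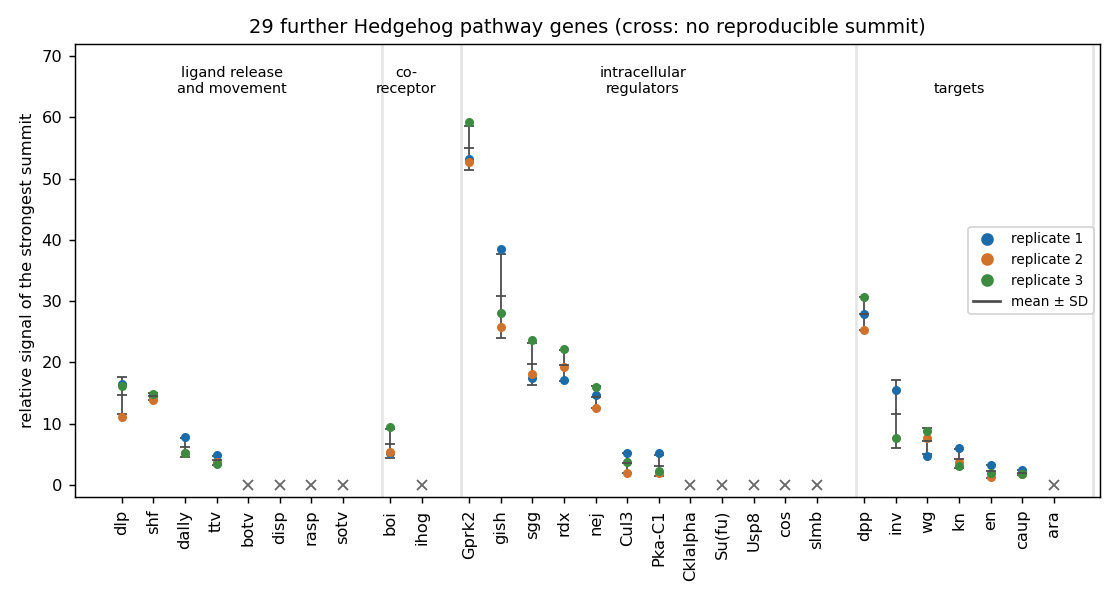
Relative signal of the strongest summit in the window (vertical axis) for 29 further Hedgehog pathway genes grouped by role (horizontal axis), with points for the 3 replicates, bars for mean ± SD and crosses at 0 for the 11 genes without a reproducible summit. Gprk2, gish and dpp are highest, at means of 55.04, 30.81 and 27.98, although this Gprk2 summit lies at the start of PNPase.

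For comparison, the core genes of 2 other pathways were counted in the same way. Of 12 genes of Dpp signalling 11 (91.7%) had a summit and 3 had one at a TSS, which were tkv, Med and shn, in windows with a median of 17.12 kb. Of 13 genes of Wingless signalling 10 (76.9%) had a summit and 2 had one at a TSS, Apc and sgg, in windows with a median of 22.448 kb. Over all genes the shares were 45.3% with a summit and 15.4% with one at a TSS, and the median window was 12.166 kb. The genes dpp, wg and sgg stand in 2 of these lists. The share of the 5 Hedgehog genes, 4 of 5, lay between these, and the difference was not tested.

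The DNA at the 13 summits was poor in G and C. The GC content of the 200 bp around the summit averaged 36.2%, against 42.3% in flanking windows centred 500 bp away, and was lower than the flanks at 11 of 13, against 79.3% of the other reproducible summits. Computed on each replicate's own summits, the difference was -7.85, -5.35 and -4.00 percentage points, a mean of -5.73 ± 1.95 (SD, n = 3). The other 7235 reproducible summits averaged 35.3% against 43.2% in their flanks. ci summit 1 had the lowest value, 26%, followed by smo summit 1 with 27%, and ptc summit 7, at the Acsl start, the highest with 44.5%.

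Among the other 7235 summits the 7-base words most enriched over the flanks held only A and T, led by AAAATAT, which occurred in either orientation at 3 of the 13 and at 26.9% of the others, against 12.8% of flanks. Of the 10 most enriched words with at least 3 G or C, 8 contained CACTG or its complement CAGTG, led by CAGTGTA, and this 5-base core was chosen after that result was seen. In the 200 bp window, on either strand, it occurred at 7 of the 13 summits, against 45.9% of the other summits and 30.6% of their flanks. The counts were 6 of 9 at ptc and 1 of 2 at smo, and 0 at hh and ci. Around the other summits the core was most frequent 80 to 99 bp from the summit, at 185 per 1000 summits, and less frequent next to it, at 70.1 per 1000 within 19 bp. Farther away, in the bins from 200 to 279 bp, there were 82.8 to 88.3 per 1000. Within 150 bp of the 13 summits, the 11 matches lay between 3 and 145 bp away. At ptc summit 2 it occurred 3 bp away, and at ptc summit 3 it occurred 25 and 36 bp away. At ptc summit 4, the strongest, it occurred 104 and 82 bp to one side, at ptc summit 1 it occurred 109 bp to one side and 86 bp to the other, and at smo summit 2, in capitals in the sequence above, 36 bp away.

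**Figure D5:**
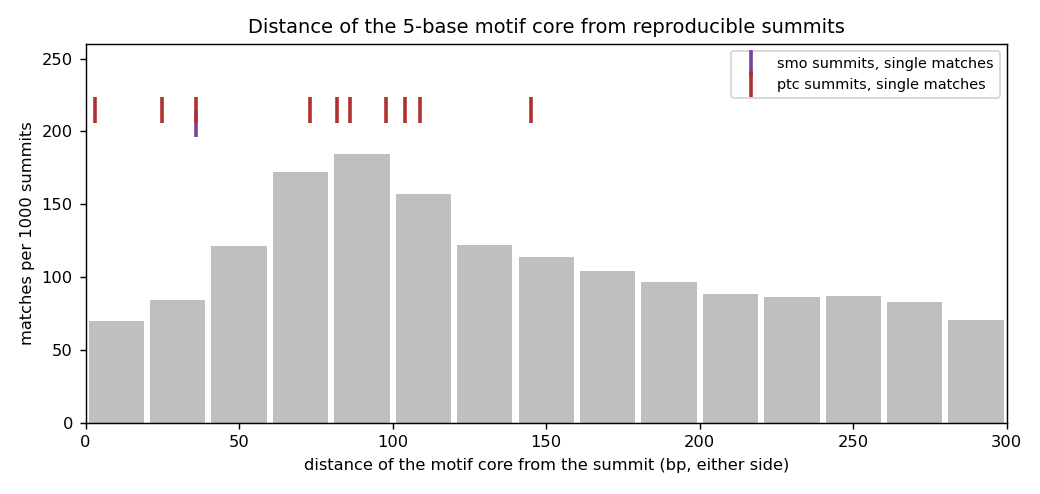
Matches of the 5-base core per 1000 summits (vertical axis) by distance from the summit in bp in bins of 20 bp (horizontal axis) for the other 7235 reproducible summits, with ticks for the single matches within 150 bp of the summits of ptc and smo. The bars peak at 184.7 between 80 and 99 bp, and the ticks of ptc lie between 3 and 145 bp.

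The recognition sequence of Ci, TGGGTGGTC, was searched on both strands because Ci is the factor through which the pathway acts. It occurred at 0 of the 13 summits, at 0.0138% of the other summits and in 0.166% of their flanks. Its first 7 bases, TGGGTGG, which are part of the longer motif, occurred at ptc summits 3 and 7, and at 1.40% of the other summits and 3.97% of flanks. Of other motifs, GAGAG, the element bound by GAGA factor, occurred at 1 of the 13 and at 23.5% of the others. TAATTA, a homeodomain core, occurred at 1 and at 16.2% of the others, and the E-box CAGCTG at 2 and at 6.50%. The DNA replication-related element TATCGATA and the Zelda site CAGGTAG occurred at 0 of the 13, and at 0.940% and 0.815% of the others. Their shares in the flanks of the others were 0.491% and 1.16%. All of these are matches of letters in 200 bp windows.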

How the data were processed

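ChIP-seq was made on 3 biological replicates of CG10669-GFP prepupae. Per the labels, DNA was sonicated to 200 to 800 bp. Per the file headers, the authors called 30000 candidate peaks per replicate and on the pooled replicates, against 1 control, and kept 7248 by the irreproducible discovery rate (IDR) step, in dm6. Caller, aligner and threshold were not given in the sources used here. Signal, as deposited in the signal column of the narrowPeak layout, is on the caller's own scale. The deposited −log10 q-value was tied at 4.24 for all 7248 and was not used for ranking. The reproducible peaks were the 7248 pooled candidates of highest signal. The sample descriptions speak of an input control, while assay, antibody field and peak lists are those of an immunoprecipitation, and the age label of 24 days was left out because the stage is prepupa.

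Summits were assigned with Ensembl release 115 (TSS window 500 bp, flank 5 kb, recovery 200 bp), in which transposable elements were left out. The coordinates of all 5 genes were the same in the RefSeq annotation. Sequence came from RefSeq Release 6. Python 3.11.15, pandas 2.3.3, numpy 2.4.6 and scipy 1.17.1 were used. The counting was tested on simulated lists. Of the further genes, those with a TSS summit and the 2 strongest others of each role were to be named, and the genes without a summit were named after their values were seen. The genes and lists were chosen with earlier results of these data known. Alternatives tried were 35 planned and 2 added.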

Additional observations from a re-analysis of the deposited data

How the results depend on the processing

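The count of 4 of the 5 genes with a summit depended on the window. It was 1 with the gene body only (14% of all genes), 1 with flanks of 2 kb (31.8%) and 2 with the summits above the list's median signal (32.7%), and 3 to 4 when 1 replicate was left out and recovery in both others was required, where ci was lost without replicate 2 or 3 (36.6% to 39.2% of all genes). With a TSS window of 1 kb, 1 gene, ptc, had a TSS summit (19.1% of all genes), against 0 in the main count. With all candidates in place of the strongest, 12 of the 13 summits were recovered in all replicates (93.6% of all summits), against 7, and 8 to 9 when 1 replicate was left out (73% to 75.1% of all summits). The log2 ratio of strongest summits ranged over 0.36 to 0.92 for ptc over smo, 0.74 to 1.13 for smo over hh and 0.21 to 0.68 for hh over ci when 1 replicate was left out. The GC difference was -8.42 points in 100 bp windows and -2.44 in 400 bp windows, against -6.08, and the core was found at 3 summits in 100 bp windows (18.02% of the other summits and 16.9% of flanks), against 7 (45.9% and 30.6%). In 300 bp windows, chosen after the data were seen, the difference was -4.17 and the core was found at 8 of 13 (61.5% of the other summits). Dividing by the median of the strongest candidates lowered all 13 relative signals, since it changes the scale. Taking the strongest candidate within 200 bp changed only ci summit 1, from 1.96 ± 0.75 to 2.55. Leaving out 1 replicate cannot move a mean of so few values by more than their SD, so the SD is no measure of stability there. With 1 replicate left out, ptc summit 9 ranged from 2.27 to 5.08 and ptc summit 3 from 1.88 to 3.32. The cause of the other shifts was not tested beyond the smaller or larger window that each setting uses. No paired analysis was possible because there was only 1 group, and the ratios between genes were taken within each replicate. Unknown depth limits what a missing summit shows.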

Other observations

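Some of the strongest candidates of single replicates lay at these genes with no reproducible summit within 200 bp. The highest ranks were at ptc, which held 7, counting the one in replicate 3 before its start. Downstream of ptc in introns of Acsl, replicate 2 had one at 8668825 at rank 2654 with a relative signal of 4.21. Replicate 3 had one at 8667792 at rank 4481 and one at 8668982 at rank 4986. Those at 8668825 and 8668982 lay within 200 bp of each other, 34 and 123 bp from the same pooled candidate, at 8668859 and rank 8849. Replicate 1 had one at 8669443 at rank 5087, just beyond 200 bp from the reproducible summit 9 at 8669238. Inside ptc, replicate 1 had one at 8653350 at rank 6186 and replicate 2 one at 8659722 at rank 7073. Inside hh, replicate 3 had one at 23133481, 8425 bp from the start and at rank 5914, with no pooled candidate within 6265 bp. Downstream of smo, replicates 2 and 3 had one each, at 283309 and 283207, at ranks 6834 and 6088, and the pooled list held none within 2629 bp. At ci, replicate 1 had one 1784 bp upstream at rank 6693, 29 bp from a pooled candidate outside the reproducible list, and replicate 3 had one 611 bp inside the gene at rank 6903 and within 500 bp of a TSS.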
